A study of Mus musculus with 4 samples.

Results

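The heat shock proteins, their cochaperones and the cytosolic chaperonin were examined in PRO-seq data from mouse embryonic stem cells depleted of Zfp574, a zinc finger protein. Members were taken by gene name: names of the Hspa, Hspb, Hspd, Hspe, Hsph and Hsp90 series, names of the Dnaja, Dnajb and Dnajc series, 8 genes of the chaperonin TRiC (Tcp1 and 7 Cct genes), Stip1, Hsf1 and Hsf2, without Hspa9 and Dnajc19. This gave 71 of the 12486 genes in the count table, of which 65 passed the filter on low counts and 6 did not (Hspa1a, Hspa1b, Hspb6, Hspb9, Dnajb3 and Dnajc4). All libraries came from 1 cell line, feeder-free diploid cells derived from the originally haploid line AN3-12, in which the N terminus of Zfp574 carries an auxin-inducible degron (AID). Both groups also carried OsTir1, a plant component of the E3 ligase for the degron, under the EF1a promoter in a clonal parental line. The 2 control libraries (0 h) came from untreated cells, and the 2 depletion libraries from cells given 500 uM of the auxin indole-3-acetic acid (IAA) for 6 h. Cells without the tag given auxin were not analysed here, so auxin itself and the loss of Zfp574 cannot be told apart.

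Heat shock proteins of the Hsp70 class bind exposed hydrophobic stretches of unfolded proteins in cycles of ATP hydrolysis that J-domain proteins (Dnaj) start and nucleotide exchange factors end. Hsp90 takes over clients at a late stage of folding, the adaptor Stip1 holds Hsp70 and Hsp90 together, and TRiC folds actin, tubulin and other proteins inside a closed double ring. Under proteotoxic stress the transcription factor Hsf1 binds repeated GAA and TTC units in the promoters of many of these genes and raises their transcription, while several constitutive members, such as Hspa8 and Hsp90ab1, are strongly transcribed in unstressed stem cells.

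PRO-seq maps the 3′ end of nascent RNA that engaged RNA polymerase extends in isolated nuclei, so a count per gene follows transcription and not the amount of stable mRNA. The libraries held 3298864 and 3616429 counts (controls), and 6045216 and 5670904 (depletion). Values below are counts, or CPM (the usual depth-scaled unit, on TMM-scaled library sizes), as mean ± SD over n = 2 libraries. Of 12 embryonic stem cell markers 11 were in the table, with summed levels of 5271, 5244, 5370 and 5308 CPM in control replicates 1 and 2 and depletion replicates 1 and 2. Of 13 markers of differentiated or feeder cells 7 were in the table, with summed levels of 46.3, 54.9, 53.6 and 57.5 CPM in the same order. Zfp574 had 80, 130, 195 and 219 counts in that order, with overlapping CPM (log2 fold change 0.25, adjusted p = 0.406, and 0.57 with an adjusted p of 0.0293 without control replicate 2, in a range of 0.0293 to 1.00 over 15 alternatives), and since the degron acts on the protein, its counts do not check the depletion.

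To ask whether transcription of the folding machinery moved after 6 h of depletion, each member was tested in a fit over all 11853 genes that passed the filter. No member passed the test in either direction at an adjusted p under 0.05 (edgeR's quasi-likelihood test, Benjamini-Hochberg adjustment), with or without a minimum change of 2-fold. Over all genes tested, 1.4% were called lower and 1.11% higher, and 0.321% lower and 0% higher with the 2-fold minimum. At an unadjusted p under 0.05, 9 of 65 members (13.8%) were lower, against 7.66% of all genes tested, and 2 (3.08%) were higher, against 8.53%. The 9 were Hsp90ab1, Hspd1, Tcp1, Cct5, Cct7, Dnajc7, Dnajc14, Dnajc24 and Hsf2, and the 2 were Dnajc1 and Dnajc6. DESeq2 with its own size factors also called 0 members, against 61 lower and 14 higher of all 11853 genes tested. At an unadjusted p under 0.05 it gave 2 members lower and 1 higher, against 244 and 255 of all genes tested.

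The members' median log2 fold change was -0.05, against -0.00 for all genes tested, and 42 of 65 lay below 0 (64.6%, against 50.6% of all genes tested). Both depletion libraries lay below both controls in 26 of 65 members (40%), against 22.9% of all genes tested, and above both controls in 8 (12.3%), against 23.4%. The 95% interval of the fold change lay within 2-fold in either direction for 60 of 65 members (92.3%, against 93.0% of all genes tested) and within 1.5-fold for 52 (80%, against 73.8%). The 5 members whose interval reached 2-fold, Dnajb4, Dnajc5g, Dnajc14, Dnajc22 and Dnajc28, had mean counts of 11.5 to 40.25 per library. In these bulk libraries, fewer cells that transcribe a gene and less transcription per cell cannot be told apart.

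**Figure D1:**
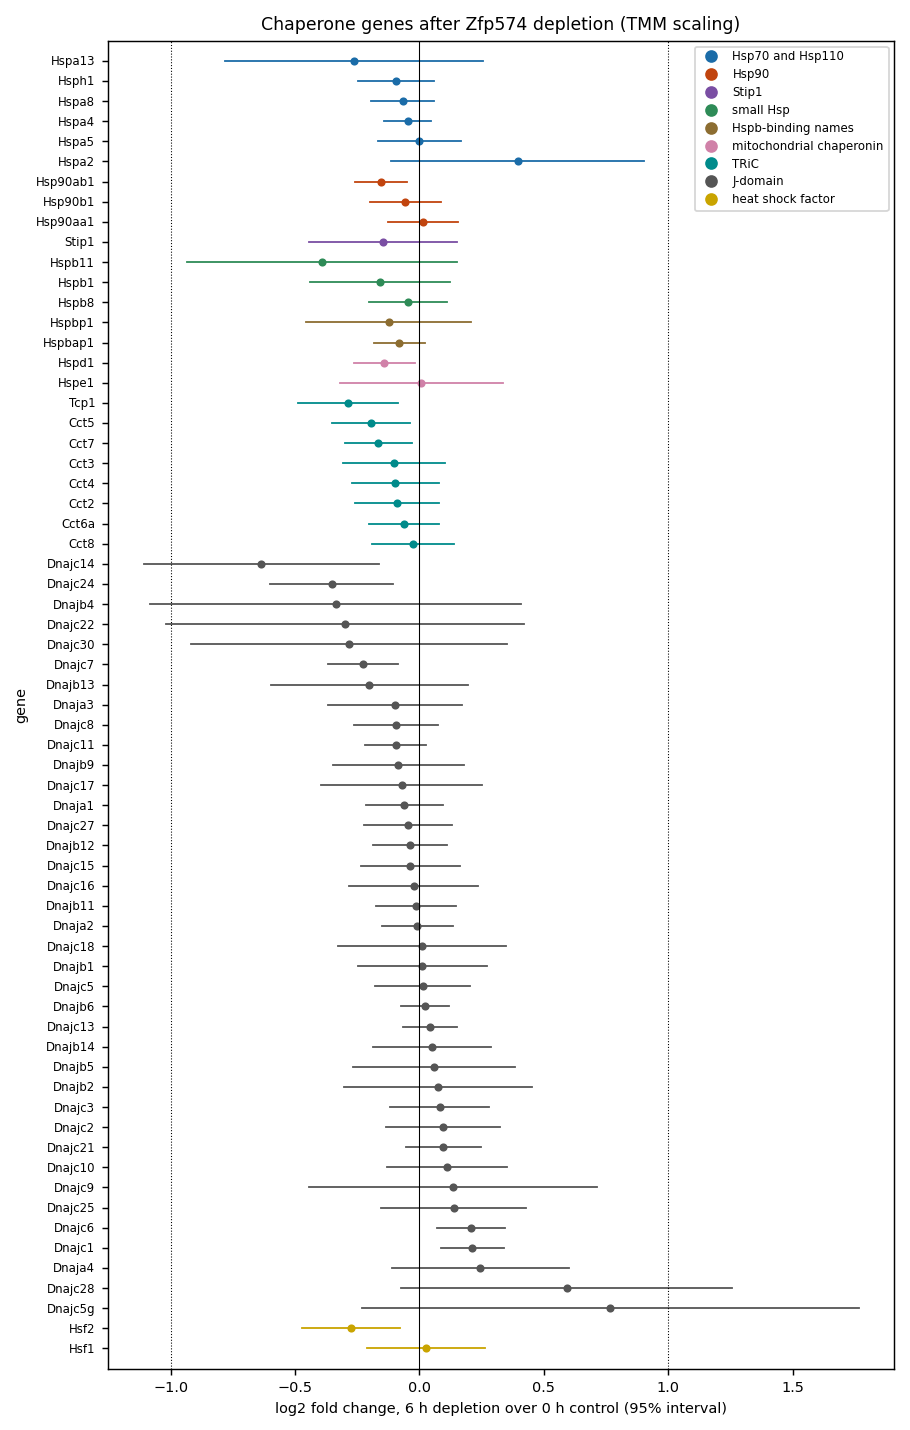
Log2 fold change (x axis, 6 h depletion over 0 h control) of each of the 65 members tested (y axis), coloured by role group. Points are estimates, bars 95% intervals, and dotted lines mark 2-fold. The 8 TRiC genes all lie left of 0, the J-domain genes lie on both sides, and the wide bars belong to genes of few counts.

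The number of members called moved with the scaling. The authors' deposited table of mean normalized signal allowed its size factors to be recovered (0.699 and 0.740 in the controls, 1.33 and 1.24 after depletion). These differ between replicates, whereas the methods describe 1 spike-in factor shared by the replicates of a condition. How they relate to that stated normalization was not resolved. Their ratio of depletion to control differed from that of TMM by 0.10 on the log2 scale, and with them the median of all genes tested was -0.11 and that of the members -0.15. With these factors 9 members (13.8%) were called lower, against 5.89% of all genes tested, and none higher, against 0.413%. They were the 9 members lower at an unadjusted p under 0.05 with TMM. A change of size factors moves all genes alike, so the members' distance from the median of all genes tested, -0.05 with TMM, was bound to stay the same. That distance was -0.02 with an offset for gene length, -0.06 without depletion replicate 1 and -0.03 without depletion replicate 2. By the same construction, members just above 0 with TMM lay below 0 with the recovered factors, where the log2 fold change was -0.09 for Hsp90aa1, -0.10 for Hspe1, -0.08 for Dnajb6 and -0.08 for Hsf1.

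**Figure D2:**
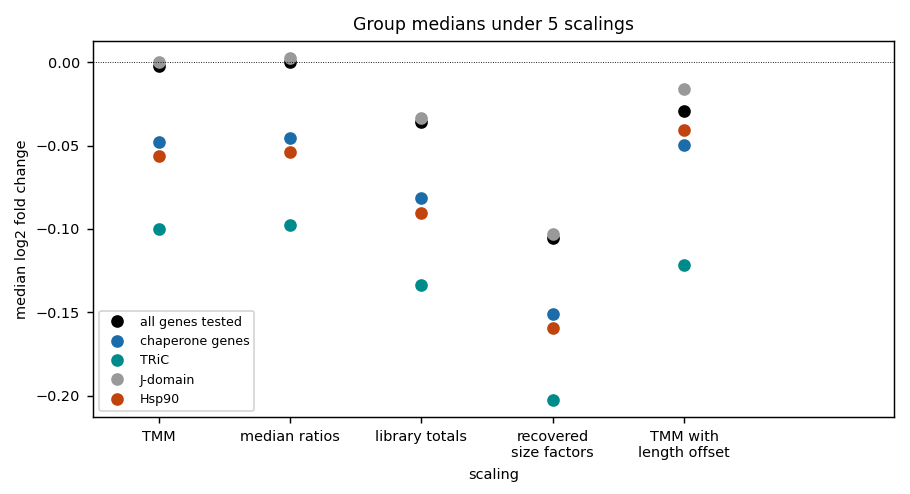
Median log2 fold change (y axis) of all genes tested, all chaperone genes, and the TRiC, J-domain and Hsp90 genes under 5 scalings (x axis). The recovered size factors move all 5 medians down together, to -0.11 for all genes and -0.20 for TRiC.

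Per kilobase of the principal transcript, the constitutive cytosolic forms had the highest levels. Hsp90ab1, the constitutive cytosolic Hsp90, reached 80.2 CPM per kb over the 4 libraries and Hspa8, the constitutive cytosolic Hsp70, 53.5 CPM per kb, above 99.4% and 98.9% of the genes in the table. Hsp90aa1, the inducible cytosolic Hsp90, had a level of 24.1 CPM per kb, Dnajb6 23.6 and Hspd1 22.6. TRiC genes lay between 2.30 and 9.99 CPM per kb and J-domain genes between 0.128 and 23.6, beside a median of 1.51 over all genes. The 2.30 of Cct6a rests on its whole gene span of 59.4 kb, since the annotation does not class this gene as protein-coding. Counts were made over the authors' own gene spans, which these lengths may not match, so levels per kb are approximate. For Hspa8 the length used was 4.217 kb, shorter than its annotated gene. Both marker genes of the group, Hspa8 and Hsp90ab1, thus had high levels per length in these cells.

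**Figure D3:**
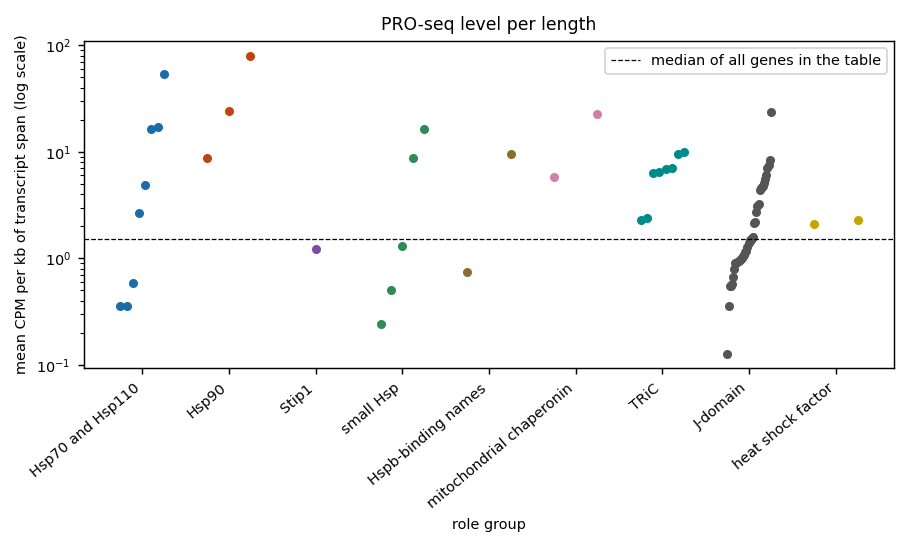
Mean CPM per kb of transcript span over the 4 libraries (y axis, log scale) for each of the 71 members, by role group (x axis). The dashed line is the median of all genes in the table, 1.51 CPM per kb. Hsp90ab1 is the highest point at 80.2 and Dnajb4 the lowest at 0.128.

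Among Hsp70 genes, Hspa8 (ENSMUSG00000015656, mm10 chromosome 9, 40800984 to 40810087, plus strand) had 733 and 883 control counts and 1339 and 1212 depletion counts. Its level was 231 ± 14.6 CPM in the controls and 220.3 ± 6.53 after depletion, and the groups overlapped. The log2 fold change was -0.07 (95% interval -0.19 to 0.06, adjusted p = 0.654), which excludes a change of 1.5-fold at that confidence, and leaving out control replicate 2 gave 0.00, leaving out control replicate 1 gave -0.13. Hspa4, an Hsp110 that acts as nucleotide exchange factor, had 2343, 2584, 4108 and 3784 counts, or 705 ± 0.788 against 682 ± 11.8 CPM (log2 fold change -0.05, adjusted p = 0.676). Hsph1, the other Hsp110 tested, had a log2 fold change of -0.09 (adjusted p = 0.584), with both depletion libraries below the controls. Hspa5, the Hsp70 of the endoplasmic reticulum, is named here after its values were seen: it had 91.8 ± 6.24 CPM before and 91.5 ± 3.84 after depletion. Of the 6 tested genes of this group 5 lay below 0 (Hspa5 at -0.00), against 50.6% of all genes tested. The median of -0.06 was -0.09 without control replicate 1 and -0.03 without depletion replicate 2. Over the alternatives Hspa5 ran up to 0.07 and Hspa8 up to 0.00. The gene above 0, Hspa2, is also named after its values were seen. It had 19, 26, 52 and 46 counts, with both depletion libraries above both controls (log2 fold change 0.39, 95% interval -0.11 to 0.90, adjusted p = 0.460).

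The stress-inducible pair Hspa1a and Hspa1b, which rise with Hsf1 activity, had few counts in any library. Hspa1a had 4 and 6 control counts and 5 and 3 depletion counts, and Hspa1b had 3 and 3 against 6 and 7. The filter on low counts removed both, so neither was tested. The pair lies on chromosome 17, minus strand, and 62.4% of the 36-base stretches of the Hspa1a transcript occur in Hspa1b too, so that reads kept only for a single position undercount both. Their promoters are printed because the pair are textbook targets of Hsf1, and because their counts here were so low. The 150 bases upstream of each RefSeq start (GRCm38.p6, equal to mm10) matched at 149 positions, and capitals mark the GAA and TTC units of GAANNTTC.
Hspa1a, chr17:34972157-34972306, minus strand: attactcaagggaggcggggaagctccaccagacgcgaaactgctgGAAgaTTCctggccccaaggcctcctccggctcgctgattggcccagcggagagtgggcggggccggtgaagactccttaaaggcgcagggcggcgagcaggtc
Hspa1b, chr17:34959239-34959388, minus strand: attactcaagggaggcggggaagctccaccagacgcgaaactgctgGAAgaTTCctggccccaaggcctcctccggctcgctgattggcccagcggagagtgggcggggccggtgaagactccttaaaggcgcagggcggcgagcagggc

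Hsp90ab1 (ENSMUSG00000023944, mm10 chromosome 17, 45567775 to 45573271, minus strand) had 1507 and 1741 control counts and 2509 and 2320 depletion counts. Its level was 464 ± 15.8 CPM in the controls and 417 ± 6.08 after depletion, with both depletion libraries below both controls. The log2 fold change was -0.15 (95% interval -0.26 to -0.05), and the adjusted p of 0.112 missed the threshold. The change was -0.19 without control replicate 1 (adjusted p = 0.0467), -0.12 without control replicate 2 (adjusted p = 0.299) and -0.12 with an offset for gene length (adjusted p = 0.274), and over all 15 alternatives the adjusted p ran from 0.00727 to 1.00. Hsp90aa1 had 139 ± 5.83 CPM before and 140.5 ± 6.47 after depletion, with overlapping libraries (log2 fold change 0.01, 95% interval -0.13 to 0.16, adjusted p = 0.956). Hsp90b1, the Hsp90 of the endoplasmic reticulum, had 130.5 ± 1.60 against 125 ± 1.48 CPM (log2 fold change -0.06, adjusted p = 0.752), and its locus overlaps another counted gene on the same strand, Gm15344. Stip1 had 85, 88, 142 and 117 counts and a log2 fold change of -0.15 (adjusted p = 0.684). Summed over the 3 Hsp90 genes, the level was 728 and 740 CPM in the controls and 684 and 682 CPM after depletion.

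All 8 TRiC genes lay below 0, as did 50.6% of all genes tested, with a median log2 fold change of -0.10. Cct8, the nearest to 0 at -0.03, ran from -0.13 to 0.01 over 15 alternatives, so this did not hold in every setting. Tcp1 (ENSMUSG00000068039), subunit alpha of the ring, had 198 and 237 control counts and 301 and 288 depletion counts, or 62.1 ± 3.66 against 50.9 ± 0.489 CPM. Its log2 fold change of -0.29 (95% interval -0.49 to -0.09) was the furthest from 0 in the complex (adjusted p = 0.121). Cct5 had 118 ± 6.38 against 102 ± 5.84 CPM (log2 fold change -0.20, adjusted p = 0.186). Cct7 had 169 ± 2.23 against 151 ± 5.69 CPM (log2 fold change -0.16, adjusted p = 0.192). In these 3 genes both depletion libraries lay below both controls, as in Cct2 and Cct6a (5 of 8, against 22.9% of all genes tested), while Cct3, Cct4 and Cct8 overlapped. Cct6a, with 139 ± 2.61 against 133 ± 3.60 CPM, had a log2 fold change of -0.06 (adjusted p = 0.715). All 8 intervals lay within 1.5-fold. The summed level was 826 and 811 CPM in the controls and 767 and 734 CPM after depletion, a difference of -8.31%. The median was -0.08 without control replicate 1, -0.15 without control replicate 2, -0.17 without depletion replicate 1 and -0.08 without depletion replicate 2.

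The mitochondrial chaperonin genes Hspd1 (Hsp60) and Hspe1 (Hsp10) stand head to head on chromosome 1 and share their promoter region. Hspd1 had 800 and 889 control counts and 1276 and 1258 depletion counts, or 242 ± 1.56 against 219 ± 6.74 CPM, with both depletion libraries lower (log2 fold change -0.14, 95% interval -0.26 to -0.02, adjusted p = 0.226). Hspe1 had 60, 68, 111 and 102 counts, or 18.3 ± 0.373 against 18.4 ± 0.349 CPM (log2 fold change 0.01, 95% interval -0.32 to 0.34, adjusted p = 0.989). The intervals of the neighbours overlap, and the difference between them was not tested. Genes named as pseudogenes of Hspd1 (5) and Hspe1 (6) exist in the annotation, so uniquely placed reads may undercount both. The 215 bases between the RefSeq starts are printed because they hold 4 alternating GAA and TTC units, which lie from base -89 to base -72 relative to the Hspe1 start and are marked in capitals.
Hspd1 to Hspe1, chr1:55087933-55088147, plus strand: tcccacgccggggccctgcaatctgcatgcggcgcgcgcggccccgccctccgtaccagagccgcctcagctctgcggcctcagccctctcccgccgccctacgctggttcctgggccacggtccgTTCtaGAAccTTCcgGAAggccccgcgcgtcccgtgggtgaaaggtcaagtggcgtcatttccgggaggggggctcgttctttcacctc

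Small heat shock proteins hold unfolded proteins in soluble form without ATP. Of 5 genes placed in this group by name, 3 were tested, among them Hspb11, which is known for another role. All 3 lay below 0, against 50.6% of all genes tested, with a median of -0.16. Without 1 library this did not hold: Hspb8 was at 0.05 without depletion replicate 2, and Hspb1 at -0.00 without control replicate 2. Hspb8 had 129 ± 2.77 against 125 ± 12.6 CPM (log2 fold change -0.05, adjusted p = 0.827). Hspb1 had 28.3 ± 3.94 against 25.5 ± 0.0597 CPM (log2 fold change -0.16, adjusted p = 0.624). Hspb11, which is known as an intraflagellar transport protein, had 23, 27, 35 and 28 counts (log2 fold change -0.39, 95% interval -0.93 to 0.15, adjusted p = 0.503). The name rule also took in Hspbap1 and Hspbp1, which bind heat shock proteins but are none: Hspbap1 had 544 ± 16.8 against 514 ± 9.82 CPM (log2 fold change -0.08, adjusted p = 0.452) and Hspbp1, an exchange factor of Hsp70, 19.1 ± 1.09 against 17.5 ± 0.468 CPM (log2 fold change -0.12, adjusted p = 0.770). In both, the depletion libraries lay below the controls.

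The J-domain genes, which choose the clients of Hsp70, divided evenly: 19 of 38 tested lay below 0 and 19 above, with a median of 0.00 that was -0.10 with the recovered size factors. Their summed level was 3236 and 3221 CPM in the controls and 3238 and 3256 CPM after depletion. Dnajb6, which keeps aggregation-prone proteins soluble, had the most counts, 2487 and 2615 against 4377 and 4208, or 731 ± 23.8 against 742 ± 9.63 CPM (log2 fold change 0.02, 95% interval -0.07 to 0.12, adjusted p = 0.867). The interval excludes a change of 1.5-fold in either direction. Dnajb6 is shown with its upstream sequence because, among members with a promoter window, it is the most transcribed with 3 GAA and TTC units. They lie from base -127 to base -115 relative to the start, in capitals.
Dnajb6, chr5:29735829-29735978, plus strand: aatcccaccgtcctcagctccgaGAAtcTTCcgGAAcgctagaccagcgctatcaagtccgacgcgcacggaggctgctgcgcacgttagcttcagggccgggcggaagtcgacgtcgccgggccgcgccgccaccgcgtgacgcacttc

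The lower tail of the J-domain genes held Dnajc7, a tetratricopeptide repeat cochaperone that binds both Hsp70 and Hsp90. It had 652 and 619 control counts and 917 and 884 depletion counts, or 182 ± 19.1 against 156 ± 2.32 CPM, with both depletion libraries lower. Its log2 fold change of -0.23 (95% interval -0.37 to -0.08) had an adjusted p of 0.0801. It was -0.33 without control replicate 2 (adjusted p = 0.00268) but -0.12 without control replicate 1 (adjusted p = 0.593), and it passed the threshold under 6 of 15 alternatives, over which the adjusted p ran from 0.00142 to 1.00. Dnajc24, which takes part in diphthamide synthesis, had 122, 142, 177 and 165 counts, or 37.7 ± 1.48 against 29.6 ± 0.261 CPM (log2 fold change -0.35, adjusted p = 0.121). Dnajb13, a component of ciliary and sperm axonemes, had a log2 fold change of -0.20 (adjusted p = 0.671). Dnajc11, a mitochondrial protein linked to cristae organisation, had 234 ± 10.1 against 219 ± 2.11 CPM (log2 fold change -0.10, adjusted p = 0.463). Dnajc14, named after its values were seen, had 32, 46, 48 and 35 counts and the lowest fold change of the members at -0.64 (95% interval -1.11 to -0.16, adjusted p = 0.151). It overlaps Sarnp on the same strand, which had a log2 fold change of -0.16 (adjusted p = 0.234), so reads of the pair may be split.

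The 2 members higher at an unadjusted p under 0.05, Dnajc1 and Dnajc6, are long genes. Dnajc1, a J-domain protein of the endoplasmic reticulum membrane with a span of 186 kb, had 564 and 640 control counts and 1180 and 1128 depletion counts, or 172 ± 3.66 against 199 ± 1.79 CPM (log2 fold change 0.21, 95% interval 0.08 to 0.34, adjusted p = 0.0654). Dnajc6 (auxilin), which recruits Hsp70 to strip clathrin from vesicles and spans 146 kb, had 131 ± 1.04 against 152 ± 1.42 CPM (log2 fold change 0.21, adjusted p = 0.0976). In both the depletion libraries lay above the controls. With an offset for gene length the log2 fold changes were 0.09 for Dnajc1 (adjusted p = 0.592) and 0.09 for Dnajc6 (adjusted p = 0.620), and over all 15 alternatives the adjusted p ran from 0.0148 to 1.00 for Dnajc1 and from 0.0366 to 1.00 for Dnajc6. Dnaja4 had 14.6 ± 1.03 against 17.3 ± 0.217 CPM (log2 fold change 0.24, adjusted p = 0.526), Dnajc25 22.3 ± 0.505 against 24.5 ± 0.268 CPM (0.14, adjusted p = 0.700), and Dnajc10, a disulphide reductase of the endoplasmic reticulum, 36.6 ± 3.78 against 39.7 ± 1.25 CPM (0.11, adjusted p = 0.709). Dnajc13, an endosomal protein of 112 kb, had a log2 fold change of 0.04, which was -0.06 with the recovered size factors and -0.07 with an offset for gene length.

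**Figure D4:**
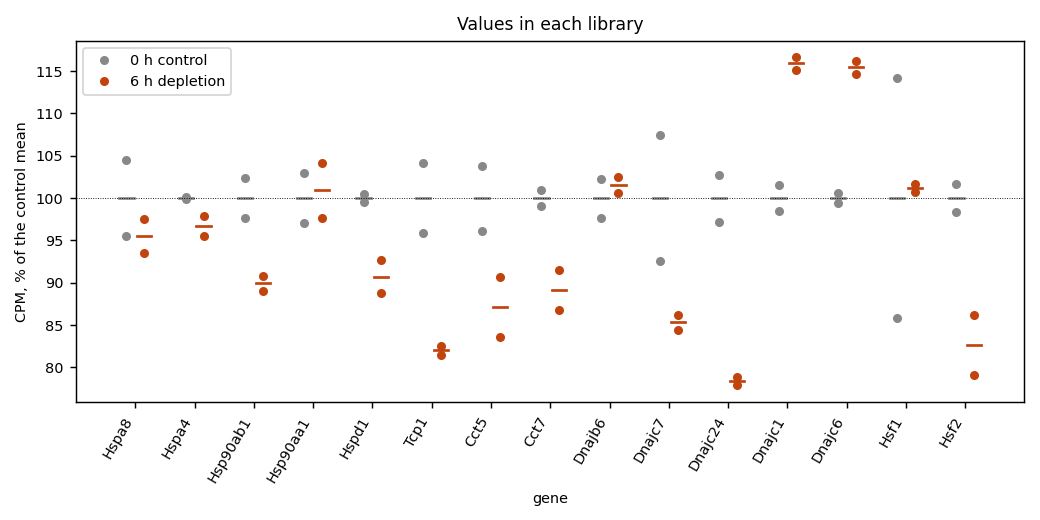
CPM of 15 members in each library (y axis, percent of the control mean), with controls in grey and depletion libraries in orange. Points are libraries and short lines group means. Dnajc24, Tcp1 and Dnajc7 lie below the controls, Dnajc1 and Dnajc6 above them, and the control libraries of Hsf1 stand furthest apart.

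Hsf1, which drives the heat shock response, had 185 and 153 control counts and 292 and 278 depletion counts, or 48.7 ± 9.79 against 49.3 ± 0.299 CPM (log2 fold change 0.03, 95% interval -0.21 to 0.26, adjusted p = 0.951). Its control libraries lay on either side of the depletion libraries, and leaving out control replicate 2 gave a log2 fold change of -0.18, leaving out control replicate 1 one of 0.24. Hsf2, a related factor active in development, had 227 and 242 counts against 316 and 325, or 67.1 ± 1.53 against 55.5 ± 3.36 CPM, with both depletion libraries lower (log2 fold change -0.28, 95% interval -0.47 to -0.08, adjusted p = 0.129).

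Over the whole table, fold changes rose weakly with gene length. Spearman's rho between log2 fold change and transcript length was 0.27 across 11844 genes tested and 0.09 across the 65 members (a description, since genes share their libraries). Members of 10 to 40 kb had a median of -0.08 (38 genes), against -0.03 for all genes of that length. Members under 10 kb had a median of 0.01 (17 genes) against -0.07, and members over 40 kb one of 0.00 (10 genes) against 0.06. With an offset for length, the TRiC median was -0.12, that of the members -0.05 and that of all genes tested -0.03.

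**Figure D5:**
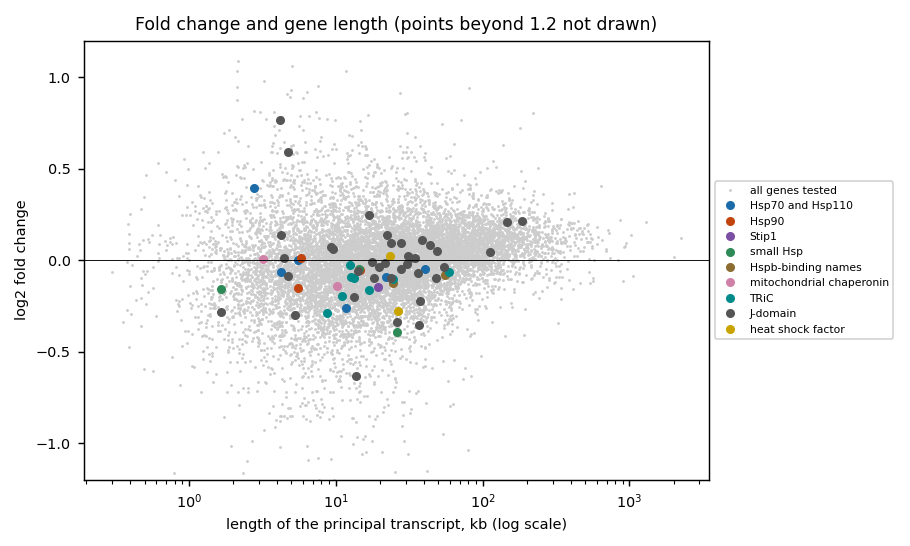
Log2 fold change (y axis) against the length of the principal transcript in kb (x axis, log scale) for all genes tested (grey) and the members (coloured by role group). The grey cloud drifts upward with length, and Dnajc1 (186 kb) and Dnajc6 (146 kb) lie in the longest decile (96.5 to 2244 kb).

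RefSeq promoter windows of 250 bases before and 50 after the start were held for 59 members and for 9721 genes of the table. The 12 members without a window were Hspa8, Hspa13, Hsp90ab1, Hsp90aa1, Cct4, Hsf1, Dnajc2, Dnajc5, Dnajc11, Dnajc18, Dnajc22 and Dnajc30. Their promoters were not searched. The Dnajc6 window lies 11328 bases from the transcript start used for its length. Both strands were searched, and overlapping matches were kept. GAANNTTC lay in 12 of 59 member windows (20.3%), against 5.65% of all windows, and TTCNNGAA in 7 (11.9%), against 6.66%. A run of 3 alternating units 2 bases apart, which contains both, lay in 4 of 59 (6.78%: Dnajb6, Hspd1, Hspe1 and Hsph1), against 0.484%, and in 0 of 7 TRiC windows. The Hspd1 and Hspe1 windows overlap and those of Hspa1a and Hspa1b are near copies, so the counts hold shared sequence. The log2 fold changes of Dnajb6, Hspd1, Hspe1 and Hsph1 were 0.02, -0.14, 0.01 and -0.09. CCAAT lay in 24 member windows (40.7%, against 39.0%), CCGGAA in 21 (35.6%, against 29.6%) and TATAAA in 3 (5.08%, against 7.01%). A match describes letters in the window and no binding. The stretch upstream of Hspb1 is printed because it holds GAANNTTC at 2 places, in capitals.
Hspb1, chr5:135887769-135887918, plus strand: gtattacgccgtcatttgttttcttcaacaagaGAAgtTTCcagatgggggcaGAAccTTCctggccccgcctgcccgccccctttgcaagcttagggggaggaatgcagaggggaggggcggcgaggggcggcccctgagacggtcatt

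Folding genes outside the name rule were read from 4 lists. Over all genes tested 1.4% were called lower and 1.11% higher, and 7.66% and 8.53% at an unadjusted p under 0.05. Of 26 Hsp90 and Hsp70 cochaperones tested, 1 was called lower and 0 higher (3 and 1 at an unadjusted p under 0.05), with a median log2 fold change of -0.04. The called gene was Fkbp4, an immunophilin that works with Hsp90 on steroid receptors: it had 206 and 203 control counts and 263 and 258 depletion counts, or 58.7 ± 4.60 against 45.1 ± 1.23 CPM (log2 fold change -0.38, adjusted p = 0.0439). Of 19 factors of the endoplasmic reticulum 1 was called lower and 0 higher (3 and 1 at an unadjusted p under 0.05), with a median of -0.08. This was Calr, a lectin chaperone that binds calcium, with 274 and 353 counts against 422 and 385, or 89.3 ± 9.90 against 69.7 ± 1.68 CPM (log2 fold change -0.36, adjusted p = 0.0230). Both fell by less than 2-fold, and both lost the call with DESeq2 and without either depletion library, as did Fkbp4 without control replicate 1 (-0.30, adjusted p = 0.267) and with the length offset (-0.35, adjusted p = 0.0757), and Calr without control replicate 2 (-0.24, adjusted p = 0.260). Over 15 alternatives the adjusted p ran from 0.00218 to 0.949 for Fkbp4 and from 0.000514 to 0.675 for Calr. None of 16 prefoldin and chaperonin helpers (median 0.03; 0 lower and 1 higher at an unadjusted p under 0.05 in edgeR) and none of 14 mitochondrial chaperones and proteases (median -0.13; 2 lower and 0 higher) was called in either direction.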

How the data were processed

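PRO-seq was done in 4 libraries, 2 per condition, labelled as biological replicates. The authors trimmed adapters (cutadapt 1.18), mapped reads to mm10 keeping single best positions (Bowtie 1.2.2), collapsed them by molecular identifier and deposited whole-number counts of 3′ ends per gene, over Ensembl genes with CAGE-corrected starts. The authors also deposited a mean normalized signal per gene, used only to recover its size factors, and their own fold changes and p-values, not used. Drosophila spike-in reads were not used here. The recovered factors differ between replicates, unlike the shared spike-in factor per condition that the methods describe, and their origin stayed unclear.

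Counts were filtered with filterByExpr (minimum count 10, total 15), scaled by TMM and tested with edgeR 4.0.16 in R 4.3.3 (glmQLFit, glmQLFTest, two-sided, condition only), with Benjamini-Hochberg adjustment over 11853 genes. Alternatives used DESeq2 1.42.0, limma-voom (limma 3.58.1), other scalings and filters, a replicate block, an offset for length and leaving out each library. Intervals cover 95%. Replicates differed by more than sampling noise (chi-square per degree of freedom 1.88 and 1.50). Lengths came from GENCODE M21, which matched all 71 members, and promoters from RefSeq. A length is the span of the principal transcript, or of the gene where none was marked. Of these steps, only the edgeR fit was tested on simulated counts.

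Members and lists were chosen with earlier results of these data known. Named genes were Zfp574, Hspa8, Hsp90ab1, called members, Stip1, Hsf1, Hsf2, Hspa1a, Hspa1b and called genes of the other lists. Also named were the 3 members with the highest mean CPM per role group, not divided by length. The 5 largest falls and rises among members averaging 50 or more counts were added. Other members named were chosen after their values were seen.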

Additional observations from a re-analysis of the deposited data

How the results depend on the processing

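Calls were few and moved with the settings. Members called lower numbered 0 with TMM, 1 with library totals (Dnajc7), 9 with the recovered size factors and 1 with the offset for gene length (Dnajc7), and 0 to 1 when each library was left out. Members called higher stayed at 0 except under the replicate block. Calls over the whole table, 166 lower and 132 higher, became 698 and 49 with the recovered factors, 61 and 14 with DESeq2's own factors, and 38 and 0 at 2-fold or more. Of the 11853 genes tested, library totals gave 202 lower and 64 higher, and the length offset 180 lower and 54 higher. Leaving out a library gave 75 to 226 lower and 21 to 271 higher, in fits that assume that a lone library varies like the other group. Calls in the other folding lists, 2 lower, became 7 with the recovered factors, 0 with DESeq2, 1 with the length offset and 0 to 3 with a library left out. The members' median log2 fold change of -0.05 was -0.0814 with library totals, -0.151 with the recovered factors, -0.0621 when genes averaging under 100 counts were dropped, and -0.0631 to -0.0331 with a library left out. No named gene's called direction reversed. The cause of these shifts was not tested.

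Replicate numbers are shared between the groups, and they were not taken as a pairing. Deviations of same-numbered libraries correlated at 0.034 over all genes tested. Genes of few counts add sampling noise to that value, so it cannot exclude a pairing. With the replicate block, 2 members were called lower (Dnajc7 and Hsp90ab1) and 2 higher (Dnajc1 and Dnajc6), beside 300 lower and 366 higher over the whole table. With the block and the length offset, 2 were lower (Dnajc7 and Hspbap1) and 345 over the whole table. With 2 libraries per group, members of few counts have wide intervals.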
